A study of Mus musculus with 11 samples.

Results

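The subunits of respiratory complexes II to V were described in the mouse retina at postnatal day 10 (P10), gene by gene and by complex, across cell classes and 4 conditions. Members were chosen by symbol alone: Sdha to Sdhd, the Uqcr genes, Cyc1, Cycs, the numbered Cox4 to Cox8 genes, the Atp5 genes, and mt-Cytb, mt-Co1, mt-Co2, mt-Co3, mt-Atp6 and mt-Atp8. The rule found 54 genes of the 25311 in the table, with 4 in complex II, 10 in complex III, cytochrome c itself, 20 in complex IV and 19 in complex V. Of these, 6 are encoded in mitochondrial DNA and 48 in the nucleus. By their known roles, Cox7a2l, a supercomplex factor, and Atp5s are not structural subunits, and Atp5l2-ps is annotated as a processed pseudogene of Atp5l.

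The study used C57BL/6J mice, and each library came from the retina of 1 mouse. Control mice received the vehicle PBS (n = 3), and Phase I ROP mice, a model of the first phase of retinopathy of prematurity (ROP), received streptozotocin (STZ), which kills pancreatic beta cells and raises blood glucose (n = 3). The other two groups were STZ-treated Phase I ROP mice nursed by dams on a diet rich in ω-3 (n = 2) or ω-6 (n = 3) long-chain polyunsaturated fatty acids. According to the sample records, control and Phase I ROP mice were littermates, and so were the ω-3 and ω-6 mice, which were split into separate cages by diet, so that diet, dam and cage cannot be told apart. Tests below therefore compare Phase I ROP with control and ω-6 with ω-3, and p-values measure the spread between mice.

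The respiratory chain passes electrons from nutrients to oxygen and uses the energy to pump protons. Complex II (succinate dehydrogenase) also belongs to the citric acid cycle, complex III hands electrons to the small carrier cytochrome c, complex IV (cytochrome c oxidase) reduces oxygen to water, and complex V is the rotary ATP synthase. Complexes III, IV and V are built from both genomes, and complex II from nuclear genes only. Photoreceptors are known for a high demand for ATP and for mitochondria packed into their inner segments.

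Single cells were captured with inDrop v3, which counts RNA molecules near their 3′ end by unique molecular identifiers (UMIs), and the total per mouse ran from 2565568 to 6517776 UMIs. Cells with more than 300 genes (20033 of 20067) were clustered, and a class name stands for cells that carried the markers of that type: 9957 rods, 1126 cones, 3596 bipolar cells, 3287 amacrine cells and 1425 Müller glia were compared. Of 9 clusters counted as rods, 1 of 6984 cells had rod markers among its 10 leading genes, and the others were counted by the share of cells with rod markers. Control mice gave few cones, with 14, 13 and 46 cells. Depth per cell also differed between control and Phase I ROP mice, without overlap. Median UMIs per kept cell were 2166, 2341 and 1550 in control and 1106, 1190 and 1003.5 in Phase I ROP mice. Median genes per kept cell were 1081, 1146 and 823 against 687, 765 and 674. A barcode occurred in more than 1 library for 2352 cells. The control libraries stood apart from the 8 others in several respects. In rods the summed level of genes that respond to dissociation was 352 to 480 CPM in control and 2340 to 4827 in the other mice, and that of the mitochondrial ribosomal RNAs was 34118 to 48451 against 3816 to 12123.

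UMIs were summed per mouse and class, and levels are given as CPM, counts scaled to the same total in each mouse, with TMM factors over the 11 mice. A molecule was counted once whatever its length, so levels were not divided by length. In such sums, fewer cells with a transcript and fewer transcripts per cell cannot be told apart.

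Promoters are shown for members whose changes are described below, because NRF1, GABPA and YY1 are the factors best known for activating nuclear genes of the respiratory chain. RefSeq windows of GRCm38.p6, from 250 bases before to 50 after the start, were matched for 37 of the 48 nuclear members, 2 of them by a synonym. The letters GCGCATGC of the NRF1 motif, on either strand, were in 8 of 37 windows (21.6%) and in 3.05% of the windows of all 27025 genes. The 8 members were Atp5g2, Atp5k, Atp5l, Cox6a1, Cycs, Sdhb, Uqcr11 and Uqcrc1. The GABPA letters CCGGAAGT were in 4 windows (10.8% against 4.31%), those of Atp5h, Cox8a, Uqcr11 and Uqcrh, and the YY1 letters AAGATGGC in 3 (8.11% against 3.19%), those of Atp5f1, Atp5j and Atp5j2. Matches of different motifs overlapped in none of these windows, the NRF1 letters on one strand can overlap those on the other, and a match is a description of letters, not of a site in use. Capitals mark the matched letters in the windows of Atp5l (chr9:44920693-44920992, minus strand, NRF1), Cycs (chr6:50566520-50566819, minus strand, NRF1) and Atp5h (chr11:115419870-115420169, minus strand, GABPA), each written 5′ to 3′ on its own strand.
Atp5l: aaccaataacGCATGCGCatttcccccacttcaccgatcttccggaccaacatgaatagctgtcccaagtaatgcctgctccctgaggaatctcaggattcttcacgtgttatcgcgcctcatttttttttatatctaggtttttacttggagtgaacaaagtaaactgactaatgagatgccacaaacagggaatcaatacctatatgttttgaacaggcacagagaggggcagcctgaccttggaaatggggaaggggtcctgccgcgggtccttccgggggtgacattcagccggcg
Cycs: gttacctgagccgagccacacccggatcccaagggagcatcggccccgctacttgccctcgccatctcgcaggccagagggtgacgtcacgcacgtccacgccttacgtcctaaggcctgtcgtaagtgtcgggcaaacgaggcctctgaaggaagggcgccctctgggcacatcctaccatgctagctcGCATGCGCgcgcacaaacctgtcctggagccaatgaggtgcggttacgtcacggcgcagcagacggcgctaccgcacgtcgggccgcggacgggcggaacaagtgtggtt
Atp5h: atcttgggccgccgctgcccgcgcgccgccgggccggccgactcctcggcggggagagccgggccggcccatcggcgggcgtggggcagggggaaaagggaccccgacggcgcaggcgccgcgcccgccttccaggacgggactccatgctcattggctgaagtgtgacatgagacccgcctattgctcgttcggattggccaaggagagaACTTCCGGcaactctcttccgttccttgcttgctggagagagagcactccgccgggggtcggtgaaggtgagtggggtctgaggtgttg

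Both ATP synthase genes of mitochondrial DNA lie on one transcript and share 43 bases, where the end of mt-Atp8 is also the start of mt-Atp6 (chrM:7927-7969, plus strand, GRCm38). The shared stretch is shown because a molecule that reaches both genes cannot be given to either with certainty, and capitals mark the start codon of mt-Atp6.
mt-Atp8 and mt-Atp6: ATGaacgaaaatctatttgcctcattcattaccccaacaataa

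Assignment of UMIs also had to divide members from near-identical copies. For 23 members, another annotated gene matched at least 100 of the last 400 bases of the transcript at 95% identity or more. The copy Gm28437 held 99.5% as many UMIs as mt-Co3, Gm28661 held 93.3% as many as mt-Co2, Gm29216 held 91.1% as many as mt-Co1, and Gm10925 held 90.8% as many as mt-Atp6. Among nuclear members, Gm10175 held 80.9% as many as Atp5g2, Gm10053 held 76.1% as many as Cycs, and Gm10012 held 75.1% as many as Cox7c. Several members had more than 1 copy, and the copies together held 105% as many UMIs as Atp5l, 137% as many as Cox7c, 103% as many as Cycs, 135% as many as mt-Co1 and 54.3% as many as Uqcrb. The copies of the pseudogene Atp5l2-ps, Atp5l among them, held 1195% as many. For 10 members the copies came to at least 50%, and the levels of these 10 are therefore uncertain. With the copies added to the member, Atp5l and Cox7c were called lower in Phase I ROP in 5 of 5 classes, as without them. No such copy was found for mt-Cytb or mt-Atp8.

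Across classes, median levels over the mice of all conditions were highest in photoreceptors for most nuclear members. For members of mitochondrial DNA they were highest in Müller glia, by a small margin. By the median over 11 mice, 26 members were highest in cones, 11 in Müller glia, 10 in rods, 5 in amacrine cells and 1 in bipolar cells, with Cox8b at a median of 0 in each. The classes were made from the same counts, so these levels are a description. The medians pool the conditions, and the order of classes need not hold within each. In control mice the nuclear sum of bipolar cells, given below, was near or above that of rods. Of the 11 members highest in Müller glia, 6 are the members of mitochondrial DNA. For these 6, the median in Müller glia was 1.05 to 1.08 times that in the second class, rods or cones. Müller glia were above all other classes in 0 to 3 of 11 mice for these members, so the classes lay close. Cox8a, the small subunit of complex IV found in most tissues, had a median of 1778 CPM in cones and 1365 CPM in rods, against 896 CPM (bipolar cells), 844 CPM (amacrine cells) and 642 CPM (Müller glia). Cox8a was highest in cones in 11 of 11 mice. The same held for Atp5h, subunit d of the stalk of ATP synthase, with a median of 480 CPM in cones and 403 CPM in rods, against 296 CPM (bipolar cells), 256 CPM (Müller glia) and 247 CPM (amacrine cells). Rods and cones lay close for other members. For Atp5a1, subunit alpha of the catalytic head, the medians were 566 CPM in cones and 563 in rods, and cones were highest in 6 of 11 mice.

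**Figure D1:**
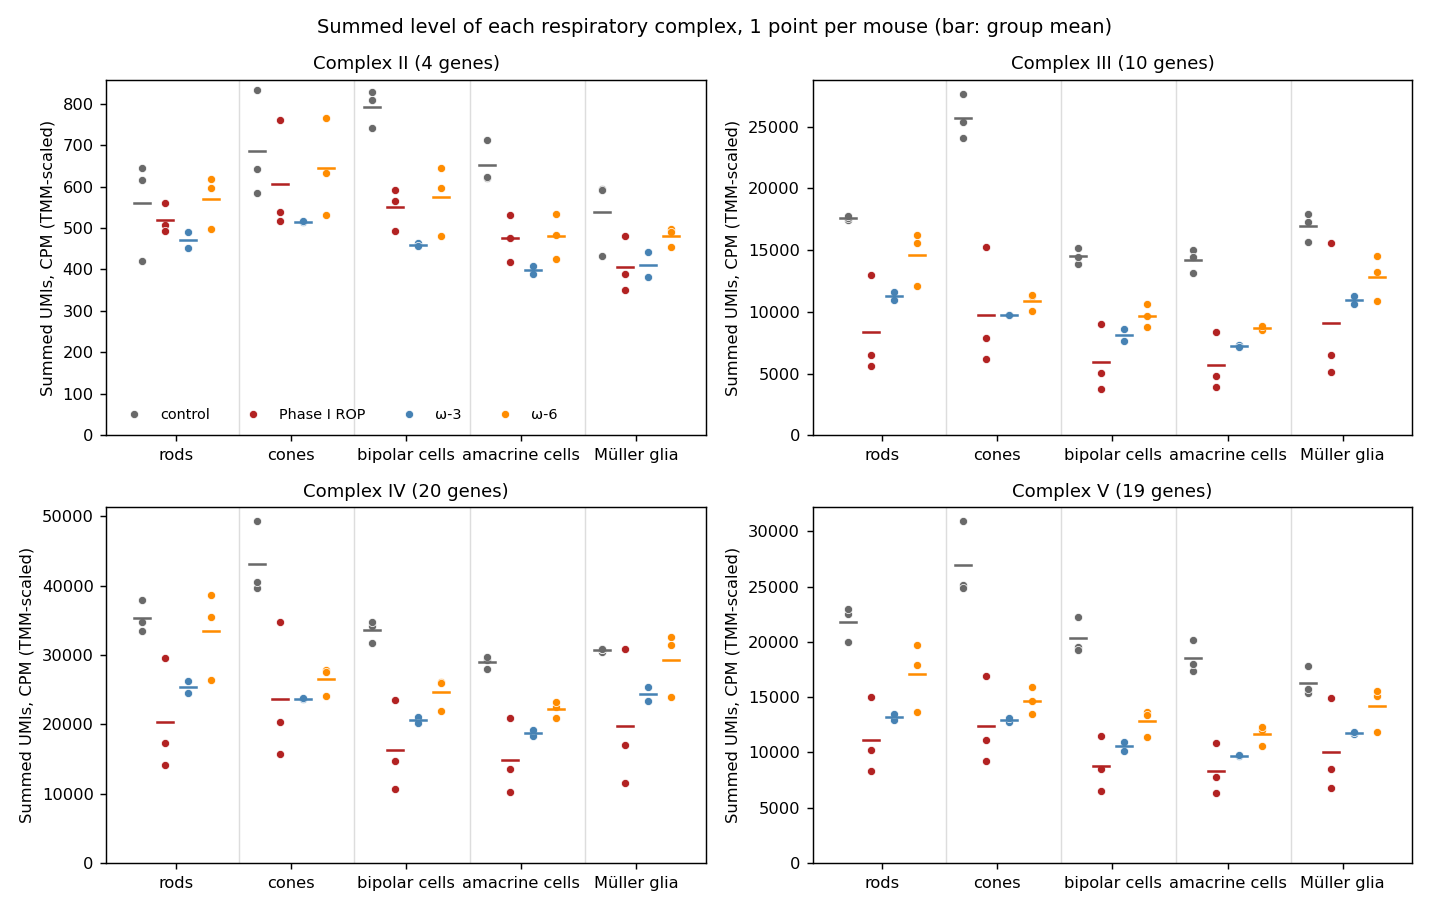
Summed level (CPM, TMM-scaled, y axis from 0) of the members of each complex in 5 cell classes, with 1 point per mouse and a bar at the group mean, coloured by condition. In bipolar and amacrine cells the 3 Phase I ROP mice lie below the 3 control mice for every complex, while in rods they overlap for complex II.

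Members of complex II differed in level. Sdhc, which anchors the complex in the inner membrane, had medians of 165 to 245 CPM by class, and Sdhb, the iron-sulfur subunit, 72.5 to 86.4 CPM. Sdha, the flavoprotein that oxidises succinate, ran from 105 CPM in Müller glia to 169 in cones, and Sdhd, the other membrane anchor, from 70.6 CPM in amacrine cells to 112 in cones. No class was above the others in every mouse for any of these 4 genes.

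Several subunits of complex IV exist as tissue isoforms, and 1 pair differed widely between the 5 classes compared. Cox4i2 is known as the isoform of subunit 4 used in low oxygen in other tissues, and Cox4i1 as the common one. Cox4i2 had a median of 279 CPM in Müller glia and at most 1.3 CPM in the other 4 classes compared. Among these classes Müller glia were highest in 11 of 11 mice. Cox4i2 was also found outside them, with mice pooled. Cells with astrocyte markers held 26 UMIs (93.2 CPM), and cells with endothelial markers held 22 UMIs (32.2 CPM). UMIs of Cox4i2 were 23.5% to 41.1% of those of Cox4i1 and Cox4i2 together in Müller glia. In rods the highest level was 24.7 CPM, from 7 UMIs in control replicate 2, and the other 10 mice had 0 to 6.5 CPM. In amacrine cells the percentage ran from 0 to 0.713%, and in cones it was 0 in 10 of 11 mice. In Müller glia the percentage was 39.4%, 39.8% and 31.7% in control mice and 41.1%, 34.2% and 23.5% in Phase I ROP mice, so the groups overlapped.

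**Figure D2:**
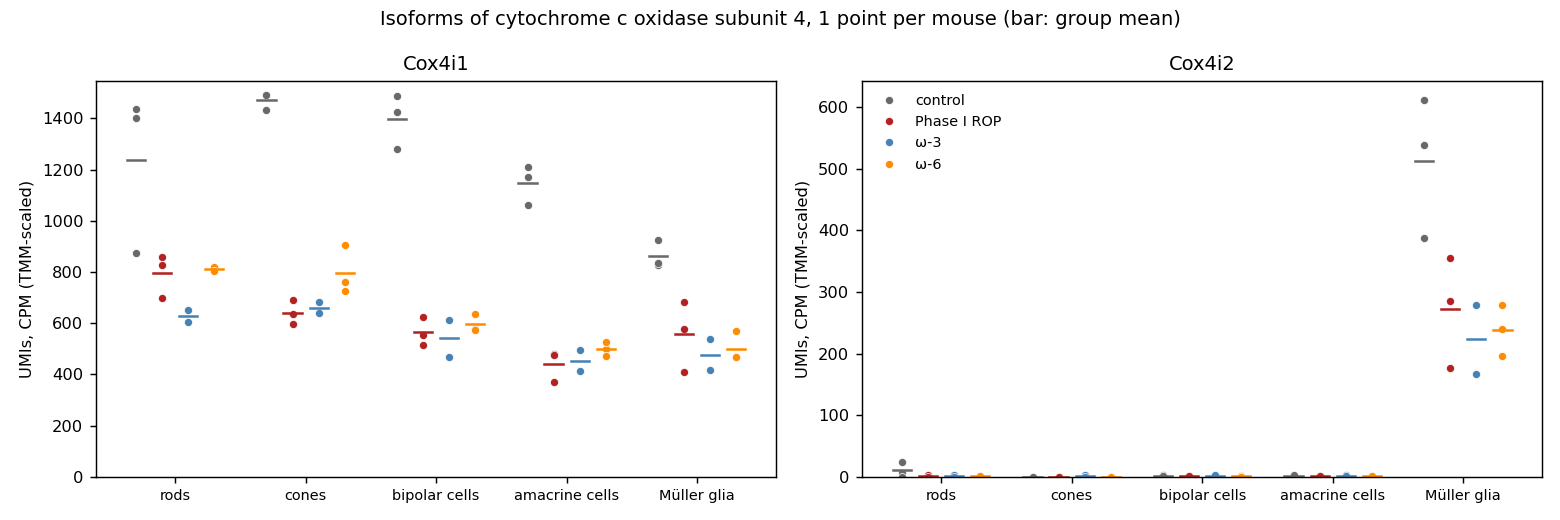
Level (CPM, TMM-scaled, y axes from 0) of Cox4i1 and Cox4i2 in 5 cell classes, with 1 point per mouse and a bar at the group mean, coloured by condition. Cox4i1 is present in each of the 5 classes, and Cox4i2 lies between 387 and 611 CPM in Müller glia of control mice. Its highest value in another of the 5 classes is 24.7 CPM, in rods of 1 control mouse.

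The muscle or testis isoforms of other complex IV subunits were near the limit of detection. Cox6a1 had medians of 318 to 587 CPM by class, against 19 UMIs of Cox6a2 in all cells, of which 14 were in amacrine cells of 7 mice. Cox7a2 had medians of 164 to 339 CPM, against 81 UMIs of Cox7a1 in all, and Cox7b 154 to 215 CPM, against 24 UMIs of Cox7b2 in all. Cox6b2 reached a median of 18.1 CPM in Müller glia, where it took a median of 10.3% of the UMIs of Cox6b1 and Cox6b2, and 2.0 to 8.7 CPM in the other classes. Cox8b gave 17 UMIs in all, and 15 of them, from 6 mice, lay in a cluster of 75 cells that carried markers of the retinal pigment epithelium and held 103707 UMIs. That corresponds to 145 CPM, against 0.078 CPM in amacrine cells and 0.112 CPM in bipolar cells. These 4 scarce isoforms passed the filter on low counts in no class and were never tested.

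The membrane ring of ATP synthase is made of subunit c, which 3 genes encode as the same mature protein. Atp5g1 was highest in cones, with a median of 416 CPM, and Atp5g3 was the most abundant of the 3 in each class by the median, with 293 to 540 CPM. Atp5g2 ran from 135 CPM in amacrine cells to 236 in rods. Near-identical copies held 80.9% as many UMIs as Atp5g2 and 13.7% as many as Atp5g1. The order of the 3 genes and the percentages below, which leave the copies out, are therefore uncertain. The percentage of the UMIs of the 3 genes that came from Atp5g1 was 40.0%, 51.0% and 31.7% in rods of control mice and 30.8%, 28.0% and 22.9% in rods of Phase I ROP mice, without overlap. In amacrine cells it was 28.4% to 30.9% in control and 25.8% to 35.6% in Phase I ROP mice, with overlap.

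Phase I ROP vs. control compared subunit expression in each class between STZ-treated and vehicle-treated mice. Transcripts of complexes II to V were lower in Phase I ROP, most broadly in bipolar and amacrine cells, and no member was called higher in any class. In bipolar cells, 44 of 47 tested members were called lower by the quasi-likelihood test of edgeR, adjusted by Benjamini-Hochberg over all tested genes, against a background of 23.9% of all tested genes called lower. In amacrine cells 45 of 47 were called lower (background 20.5%), in rods 19 of 47 (background 20.8%), in cones 27 of 47 (background 7.9%) and in Müller glia 16 of 48 (background 5.03%). The median log2 fold change of tested members was −1.13 in bipolar cells, −1.14 in amacrine cells, −0.56 in rods, −0.93 in cones and −0.59 in Müller glia, while that of all tested genes lay between 0.00 and 0.10. The counts in rods, cones and Müller glia rested on single mice. In rods the count was 36 without control replicate 2 and 6 without Phase I ROP replicate 2, and in cones it was 11 without control replicate 3. In Müller glia it was 3 without Phase I ROP replicate 2, and 5 by DESeq2. The shares of all tested genes called lower in these alternatives are not given.

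**Figure D3:**
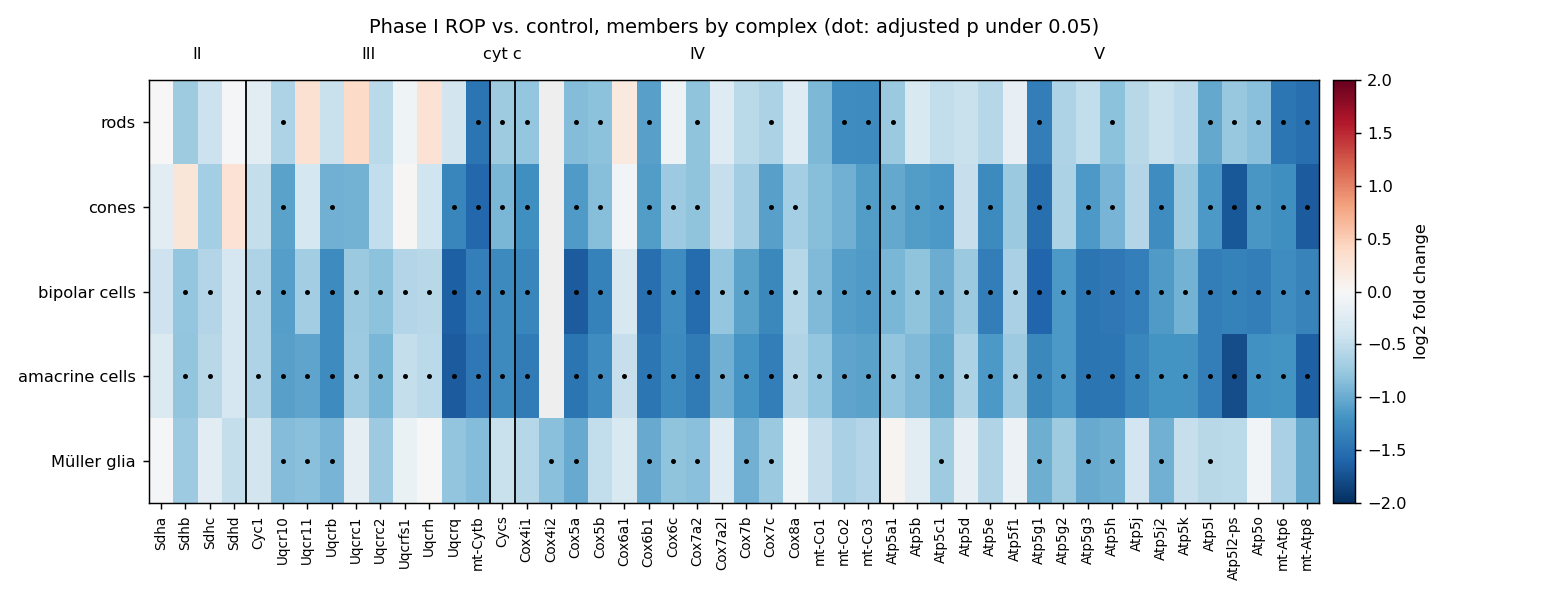
Log2 fold change of each tested member, Phase I ROP vs. control, by cell class (rows) and complex (columns), coloured on a scale centred at 0, with a dot where the edgeR adjusted p was under 0.05. Bipolar and amacrine cells carry dots on 44 and 45 members, rods on 19.

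Of the 54 members, 8 were called lower in all 5 classes: Uqcr10, Cox5a, Cox6b1, Cox7a2, Cox7c, Atp5g1, Atp5h and Atp5l. A further 15 were called in 4 classes, 7 in 3, 14 in 2 and 2 in 1. These counts depended on the processing. Without Phase I ROP replicate 2, only 3 members were called in Müller glia. The call of Uqcr10 was lost in 8 alternatives in rods, 6 in cones and 5 in Müller glia. Those of Cox5a and Atp5g1 were each lost in 6 alternatives in Müller glia. Sdha and Sdhd were tested and called in none, with edgeR adjusted p of 0.0557 and 0.171 in bipolar cells. The remaining 6 did not pass the filter on low counts in this comparison: Cox6a2, Cox7a1, Cox7b2, Cox8b, Cox6b2 and Atp5s.

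Complex II moved least. Of its 4 members, none was called in rods, cones or Müller glia by edgeR, with 1, 0 and 1 at an unadjusted p under 0.05 and none by DESeq2. In bipolar (background 23.9%) and in amacrine cells (background 20.5%), 2 of the 4 were called lower. Sdhb, which holds the iron-sulfur clusters, was at 105, 111 and 132 CPM in amacrine cells of control mice and at 69.7, 64.5 and 70.1 CPM in Phase I ROP mice. The groups did not overlap, and the log2 fold change was −0.79 (SE 0.18, edgeR adjusted p = 0.00275). In rods the same gene was at 90.3, 60.0 and 106 CPM in control and at 36.9, 61.0 and 78.1 CPM in Phase I ROP, and control replicate 2 lay inside the Phase I ROP range. Sdhc, a membrane anchor, was at 397, 315 and 367 CPM in bipolar cells of control mice and at 230, 245 and 241 CPM in Phase I ROP mice. All 3 Phase I ROP mice were below all 3 control mice (log2 fold change −0.59, SE 0.14, edgeR adjusted p = 0.00317). Sdha in rods was at 145, 138 and 170 CPM in control and at 166, 156 and 185 CPM in Phase I ROP, with a log2 fold change of 0.01 (SE 0.22). The summed level of complex II overlapped between the groups in rods, cones and Müller glia, and did not overlap in bipolar cells, with 740 to 827 CPM in control and 494 to 592 CPM in Phase I ROP.

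In complex III, 10 of 10 members were called lower in bipolar (background 23.9%) and in amacrine cells (background 20.5%). The counts were 2 of 10 in rods (background 20.8%), 4 of 10 in cones (background 7.9%) and 3 of 10 in Müller glia (background 5.03%). In rods the count was thus near the share of all tested genes. Uqcr10, a small accessory subunit (chr11:4701973-4704342, GRCm38), was at 269, 294 and 268 CPM in bipolar cells of control mice and at 129, 135 and 124 CPM in Phase I ROP mice. The groups were well separated (log2 fold change −1.10, SE 0.15, edgeR adjusted p = 5.32e-05). In rods Uqcr10 was at 329, 184 and 322 CPM in control and at 225, 183 and 195 CPM in Phase I ROP, and it was called (log2 fold change −0.62, SE 0.23, edgeR adjusted p = 0.0373) although control replicate 2 lay inside the Phase I ROP range. Some core and accessory subunits had positive log2 fold changes in rods without passing the test: Uqcrc1, a core subunit, of 0.39 (edgeR adjusted p = 0.249), Uqcr11 of 0.30 (edgeR adjusted p = 0.359) and Uqcrh, the hinge protein, of 0.29 (edgeR adjusted p = 0.306).

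Cytochrome c, encoded by Cycs, was called lower in 4 of 5 classes. In amacrine cells it was at 392, 381 and 390 CPM in control and at 137, 185 and 165 CPM in Phase I ROP (log2 fold change −1.28, SE 0.14, edgeR adjusted p = 1.30e-05). In rods it was at 284, 198 and 262 CPM in control and at 150, 164 and 189 CPM in Phase I ROP, and the groups did not overlap. The edgeR adjusted p in rods was 0.0140, and it was above 0.05 when any single mouse other than control replicate 2 or Phase I ROP replicate 3 was left out, at most 0.0930. In cones it was 0.0336, and 0.0974 by DESeq2, and it was above 0.05 when any single mouse other than control replicate 2 was left out, at most 0.304, without control replicate 3. In Müller glia Cycs was at 125, 93.0 and 135 CPM in control and at 98.1, 74.8 and 75.9 CPM in Phase I ROP, with an edgeR adjusted p of 0.345.

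In complex IV, 14 of 14 tested members were called lower in amacrine cells (background 20.5%) and 13 of 14 in bipolar cells (background 23.9%). The counts were 9 of 14 in cones (background 7.9%), 8 of 14 in rods (background 20.8%) and 7 of 15 in Müller glia (background 5.03%). Cox5a, a nuclear-encoded subunit on the matrix side (chr9:57521274-57532426, GRCm38), had the smallest adjusted p of any member. In bipolar cells Cox5a was at 548, 528 and 557 CPM in control mice and at 170, 159 and 183 CPM in Phase I ROP mice (log2 fold change −1.67, SE 0.13, edgeR adjusted p = 4.4e-07). Each Phase I ROP value lay far below the lowest control value. In rods it was at 394, 254 and 399 CPM in control and at 227, 202 and 206 CPM in Phase I ROP (log2 fold change −0.87, SE 0.22, edgeR adjusted p = 0.00353). Control replicate 2 was the lowest control mouse here as well. Cox6b1, which links the monomers of the complex IV dimer (chr7:30616861-30626151, GRCm38), was at 380, 331 and 404 CPM in amacrine cells of control mice and at 125, 135 and 158 CPM in Phase I ROP mice (log2 fold change −1.44, SE 0.14, edgeR adjusted p = 6.17e-06). In Müller glia Cox6b1 was at 230, 279 and 300 CPM in control and at 142, 140 and 101 CPM in Phase I ROP, without overlap. In rods it was at 358, 159 and 433 CPM in control and at 157, 158 and 180 CPM in Phase I ROP, so control replicate 2 lay inside the Phase I ROP range.

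Among the isoforms of complex IV, both forms of subunit 4 had lower mean levels in Müller glia of Phase I ROP mice, and 1 of them passed the test. Cox4i2 (chr2:152754173-152765037, GRCm38) was at 539, 611 and 387 CPM in control and at 285, 355 and 177 CPM in Phase I ROP, without overlap (log2 fold change −0.83, SE 0.25, edgeR adjusted p = 0.0440). The adjusted p was 0.0930 by DESeq2 and was above 0.05 when any single mouse other than control replicate 3 was left out, at most 0.165, without Phase I ROP replicate 3. Cox4i1 was at 827, 924 and 835 CPM in control and at 408, 683 and 578 CPM in Phase I ROP (log2 fold change −0.56, SE 0.19, edgeR adjusted p = 0.0698). Outside Müller glia Cox4i1 was called lower in each of the other 4 classes. Cox8a was called lower in bipolar cells, amacrine cells and cones, and not in rods, where it was at 1884, 872 and 1590 CPM in control and at 1463, 1148 and 1382 CPM in Phase I ROP (log2 fold change −0.26, SE 0.26, edgeR adjusted p = 0.442).

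In complex V, 18 of 18 tested members were called lower in bipolar (background 23.9%) and in amacrine cells (background 20.5%). The counts were 13 of 18 in cones (background 7.9%), 8 of 18 in rods (background 20.8%) and 6 of 18 in Müller glia (background 5.03%). Atp5g1, one of the genes of the c ring (chr11:96068852-96075670, GRCm38), was the member with the smallest adjusted p in rods and cones. In rods it was at 752, 639 and 507 CPM in control and at 302, 257 and 244 CPM in Phase I ROP (log2 fold change −1.38, SE 0.22, edgeR adjusted p = 6.48e-05). In cones it was at 984, 976 and 1603 CPM in control and at 466, 434 and 416 CPM in Phase I ROP (log2 fold change −1.50, SE 0.22, edgeR adjusted p = 6.07e-05). In both classes all Phase I ROP mice were below all control mice. Atp5h, whose promoter window with the GABPA letters is shown above, was at 592, 471 and 650 CPM in amacrine cells of control mice and at 230, 197 and 210 CPM in Phase I ROP mice (log2 fold change −1.45, SE 0.14, edgeR adjusted p = 6.17e-06). In Müller glia it was at 439, 578 and 462 CPM in control and at 256, 229 and 221 CPM in Phase I ROP (log2 fold change −0.98, SE 0.19, edgeR adjusted p = 0.00443). In rods it was at 700, 353 and 651 CPM in control and at 341, 315 and 410 CPM in Phase I ROP, and the groups overlapped.

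The members encoded in mitochondrial DNA were called lower in 6 of 6 cases in bipolar (background 23.9%) and in amacrine cells (background 20.5%). The counts were 5 of 6 in rods (background 20.8%) and 4 of 6 in cones (background 7.9%). In Müller glia edgeR called 0 of 6, with 1 at an unadjusted p under 0.05 and 0 by DESeq2. mt-Cytb, the cytochrome b of complex III, was at 14959, 16190 and 15396 CPM in rods of control mice and at 10940, 3558 and 4436 CPM in Phase I ROP mice (log2 fold change −1.45, SE 0.41, edgeR adjusted p = 0.00839). Phase I ROP replicate 1 stood apart from the other 2 in each class. In Müller glia mt-Cytb was at 13582, 15844 and 15297 CPM in control and at 14261, 3821 and 5278 CPM in Phase I ROP (log2 fold change −0.87, SE 0.41, edgeR adjusted p = 0.184), so replicate 1 lay within the control range. The sum of the 6 members in Müller glia was 48603 to 53300 CPM in control, and 53669, 14876 and 23870 CPM in Phase I ROP, with replicate 1 above the highest control mouse. Without Phase I ROP replicate 1, 6 of 6 were called lower in Müller glia, with a median log2 fold change of −1.29 in place of −0.65, and 6 of 6 in each of the other classes. The background without this mouse is not given, so these counts are not read as an excess.

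The catalytic subunits of complex IV that mitochondrial DNA encodes followed the same order of mice. In rods mt-Co1 was at 10739, 10191 and 9106 CPM in control and at 9703, 3563 and 4693 CPM in Phase I ROP (log2 fold change −0.90, SE 0.37, edgeR adjusted p = 0.0604). mt-Co2 was at 11655, 12098 and 11287 CPM against 9204, 3148 and 4215 CPM (log2 fold change −1.24, SE 0.39, edgeR adjusted p = 0.0152). mt-Co3 was at 6426, 6391 and 6049 CPM against 4719, 1865 and 2207 CPM (log2 fold change −1.26, SE 0.34, edgeR adjusted p = 0.00645). Of these, mt-Co1 alone overlapped between the groups in rods. For the membrane channel of ATP synthase, mt-Atp6 in rods was at 12836, 13464 and 13980 CPM in control and at 9036, 3200 and 4264 CPM in Phase I ROP (log2 fold change −1.44, SE 0.39, edgeR adjusted p = 0.00609). mt-Atp8 was at 677, 777 and 591 CPM against 428, 165 and 200 CPM (log2 fold change −1.51, SE 0.29, edgeR adjusted p = 0.000373). Its UMIs cannot be fully told apart from those of mt-Atp6 over the 43 shared bases shown above.

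**Figure D4:**
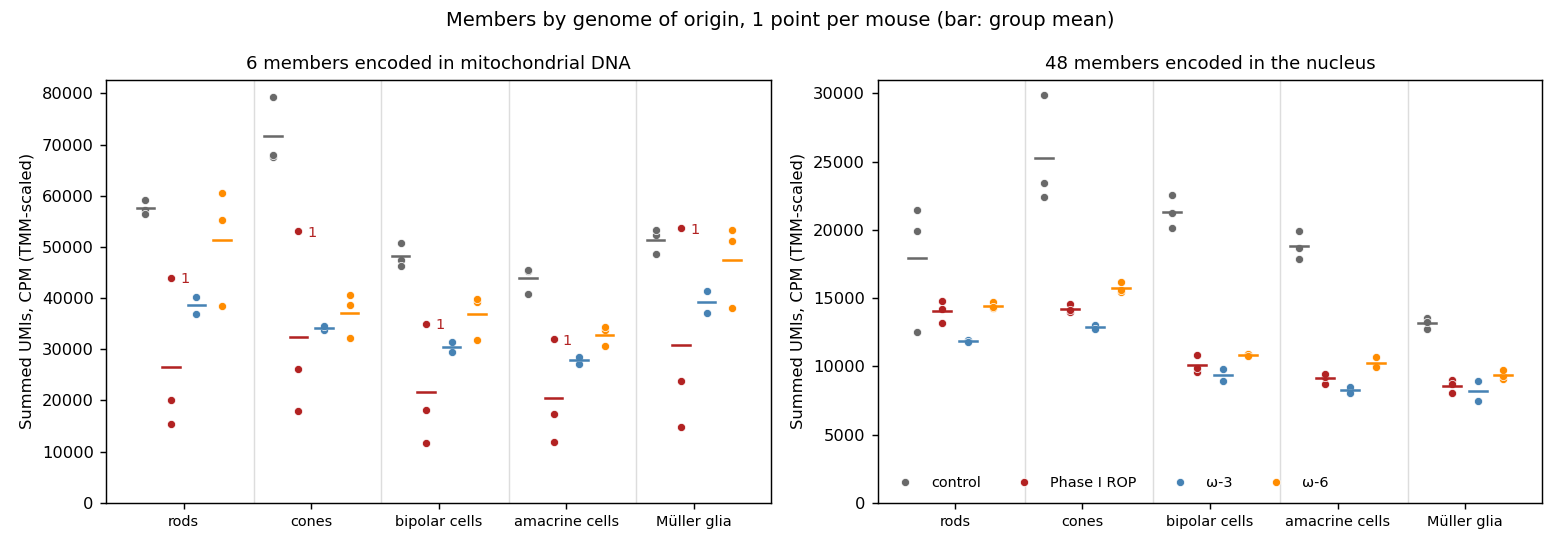
Summed level (CPM, TMM-scaled, y axes from 0) of the 6 members encoded in mitochondrial DNA and of the 48 encoded in the nucleus, in 5 cell classes, with 1 point per mouse and a bar at the group mean. One Phase I ROP mouse lies apart in the mitochondrial sums, at 53669 CPM in Müller glia, and one control mouse in the nuclear sum of rods, at 12489 CPM.

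Nuclear members showed a different stray mouse. Their sum in rods was 21472, 12489 and 19937 CPM in control and 14162, 13171 and 14764 CPM in Phase I ROP, so control replicate 2 fell below the Phase I ROP range. In bipolar cells the nuclear sum was 21198, 20139 and 22522 CPM in control and 9607, 9885 and 10832 CPM in Phase I ROP, without overlap. Without control replicate 2, 30 of 41 tested nuclear members were called lower in rods, against 14 of 41 with it (background with it 20.8%). The background without this mouse is not given, so the larger count is not read as a result about members.

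Other genes of the same pathway were counted beside the members. The subunits of complex I, which oxidises NADH, were called lower for 44 of 44 in amacrine cells, 41 of 44 in bipolar cells, 21 of 44 in cones, 20 of 44 in rods and 14 of 43 in Müller glia, and none was called higher. Of all tested genes, 20.5%, 23.9%, 7.9%, 20.8% and 5.03% were called lower, in the same order of classes. Among assembly factors of complexes II to V, 2 of 32 tested were called higher in rods and 2 lower, below the share of all tested genes called lower (20.8%). In amacrine cells 1 of 37 was higher and 14 lower, above that share (20.5%). In rods Coa5 and Tmem70 were called higher, with log2 fold changes of 1.45 and 1.45, and Atpaf2 and Pet100 lower, with −2.22 and −1.82. For the exchange of ADP, ATP and phosphate, 2 of 9 tested genes were lower in rods, among them the phosphate carrier Slc25a3 with −0.90, and 6 of 9 in amacrine cells. Genes that express mitochondrial DNA were called in both directions in rods, with 3 of 10 higher, namely the regulators Ppargc1a (log2 fold change 1.31), Ppargc1b (1.03) and Yy1 (1.58), and 2 lower, the polymerase subunits Polg (−0.94) and Polg2 (−1.20). In rods, the lower counts of these last 2 lists were near the share of all tested genes. The share of all tested genes called higher is not given, so the higher counts are not read as an excess.

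Several other measures moved with the groups, the depth per cell given above among them. Their part in the lower levels of members was not tested. The mitochondrial ribosomal RNAs mt-Rnr1 and mt-Rnr2 were called lower in each class, and their summed level in Phase I ROP was 0.123 to 0.166 of that in control. The dissociation list rose for 15 of 15 tested genes in rods, 18 of 19 in amacrine cells, 17 of 20 in Müller glia, 10 of 12 in cones and 9 of 11 in bipolar cells. The share of all tested genes that rose is not given, so these counts are not read as an excess. In a list of nuclear RNAs and RNAs without poly(A), Rn7sk was called lower in each class, with log2 fold changes of −6.76 to −4.76, and Rpph1 in rods (−6.83) and bipolar cells (−7.31). The summed level of that list in rods was 2749 to 6628 CPM in control and 704 to 1395 CPM in Phase I ROP, and 5 of 5 tested genes were lower. In amacrine cells it ran the other way, with 2209 to 2332 CPM in control and 2420 to 3090 CPM in Phase I ROP. RNAs of rods, read in amacrine cells, which should lack them, summed to 250 to 367 CPM in control and 750 to 1252 CPM in Phase I ROP. Cytosolic ribosomal proteins were called lower for 82 of 93 in bipolar cells (background 23.9%) and 84 of 94 in amacrine cells (background 20.5%). The counts were 11 of 89 in rods (background 20.8%), 7 of 82 in cones (background 7.9%) and 2 of 83 in Müller glia (background 5.03%).

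Whether the Phase I ROP effect differed between classes was tested as an interaction, with the mouse as a block. The effect in rods minus that in bipolar cells was called for 17 of 47 members, all with a smaller fall or a rise in rods (background 3.94%), and the median over members was 0.66 against 0.18 over all tested genes. Against amacrine cells it was called for 8 of 48 members (background 2.5%), with a median of 0.49 against −0.05. The largest difference from bipolar cells was that of Uqcrq, an accessory subunit of complex III, at 1.43 on the log2 scale (edgeR fit), and the largest from amacrine cells that of Uqcr11, also of complex III, at 1.30. None of the 6 members of mitochondrial DNA was called in either test by edgeR or by DESeq2, with 0 and 1 at an unadjusted p under 0.05. Both counts depended on the tool, the scaling and single mice. Leaving out any 1 of the 6 mice gave 3 (without control replicate 2) to 10 (without control replicate 1) against bipolar cells, and 3 (without Phase I ROP replicate 3) to 14 (without control replicate 1) against amacrine cells. DESeq2 called 3 and 4 members, and median-of-ratios scaling called 7 against bipolar cells. Scaling without genes of mitochondrial DNA called 25 against amacrine cells, and no filter on low counts called 21. With only the clusters that had class markers among their leading genes, 2 and 3 were called.

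ω-6 vs. ω-3 compared subunit expression between Phase I ROP mice of the ω-6 and ω-3 diet groups. Fitted log2 fold changes were above 0 for 46 of 48 members in rods, 47 of 49 in amacrine cells, 43 of 47 in bipolar cells, 41 of 47 in cones and 37 of 48 in Müller glia, and no member passed the quasi-likelihood test of edgeR after Benjamini-Hochberg adjustment. Of all tested genes, 0.0159% were called in rods, the 2 genes mt-Rnr1 and mt-Rnr2, and 0% in each of the other 4 classes. At an unadjusted p under 0.05 there were 31 of 48 members in rods, 20 of 49 in amacrine cells, 15 of 47 in cones, 7 of 47 in bipolar cells and 6 of 48 in Müller glia. The share of all tested genes under this unadjusted threshold is not given, so these counts are not read as a result about members. DESeq2 called 7 members in rods, 1 in cones and 0 in the others. The median log2 fold change of members was 0.36 in rods, 0.32 in cones, 0.31 in amacrine cells, 0.20 in bipolar cells and 0.17 in Müller glia, and that of all tested genes lay between 0.00 and 0.02. Members whose ω-6 mice were all above both ω-3 mice numbered 37 of 49 in amacrine cells (background 13.8%), 34 of 48 in rods (background 10.4%), 28 of 47 in cones (background 12.2%), 20 of 47 in bipolar cells (background 9.79%) and 15 of 48 in Müller glia (background 9.55%).

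**Figure D5:**
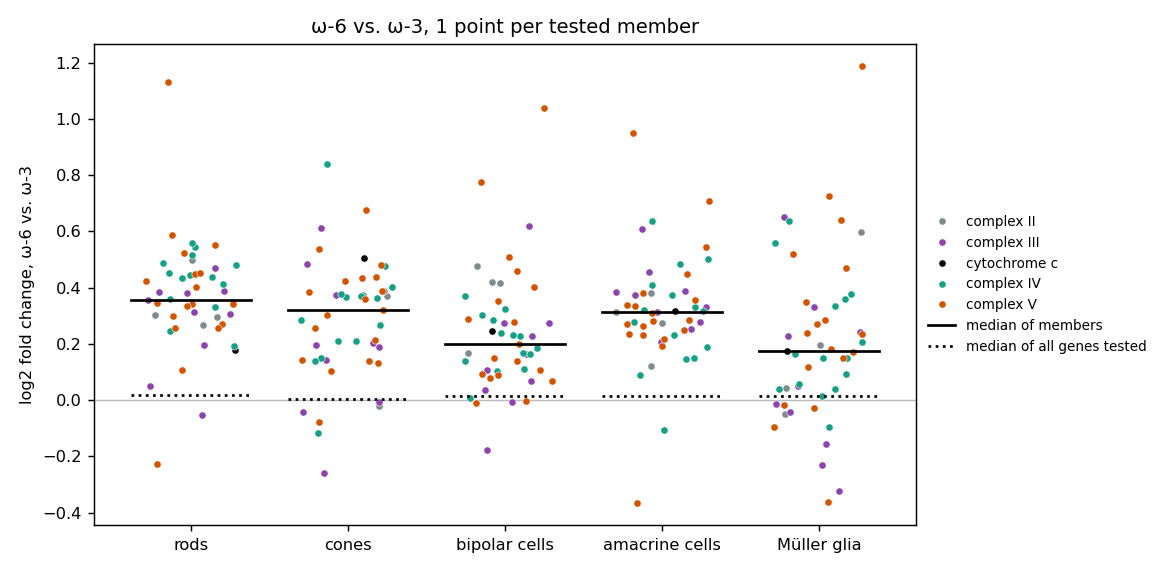
Log2 fold change, ω-6 vs. ω-3, with 1 point per tested member, by cell class and coloured by complex, and lines at the median of the members and of all tested genes. Most points lie above 0 in rods, where the median is 0.36, and none passed the test.

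mt-Atp8 had the smallest unadjusted p among members in rods, bipolar cells and Müller glia. In rods it was at 327 and 219 CPM in the ω-3 mice and at 389, 554 and 769 CPM in the ω-6 mice (log2 fold change 1.13, SE 0.26, edgeR adjusted p = 0.341). In Müller glia it was at 248 and 176 CPM in the ω-3 mice and at 308, 456 and 704 CPM in the ω-6 mice (log2 fold change 1.19, SE 0.30, edgeR adjusted p = 0.994). In bipolar cells the ω-3 mice had 239 and 137 CPM and the ω-6 mice 272, 381 and 511 CPM (log2 fold change 1.04, SE 0.29, edgeR adjusted p = 0.991). The groups did not overlap in any of the 3 classes, but the ω-6 mice spread over a wide range. Its neighbour mt-Atp6 in rods was at 7914 and 8715 CPM in the ω-3 mice and at 7760, 13394 and 11472 CPM in the ω-6 mice, with overlap.

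Cox5a led in cones and amacrine cells. In cones it was at 174 and 169 CPM in the ω-3 mice and at 309, 274 and 344 CPM in the ω-6 mice (log2 fold change 0.84, SE 0.19, edgeR adjusted p = 0.368). In amacrine cells it was at 150 and 130 CPM against 220, 216 and 211 CPM (log2 fold change 0.64, SE 0.15, edgeR adjusted p = 0.337). All ω-6 mice were above both ω-3 mice in these classes, and also in rods, with 160 and 171 CPM against 205, 242 and 220 CPM. Uqcrb, an accessory subunit of complex III, was second in both classes. In cones it was at 210 and 248 CPM in the ω-3 mice and at 371, 325 and 357 CPM in the ω-6 mice, and in amacrine cells at 141 and 149 CPM against 240, 201 and 219 CPM. Its log2 fold changes were 0.61 and 0.61, with edgeR adjusted p of 0.537 and 0.371. Next in these classes were Cox6c, a subunit of complex IV, at 810 and 833 CPM against 1152, 1032 and 1080 CPM in cones, and mt-Co2, at 6177 and 6514 CPM against 7626, 8012 and 8174 CPM in amacrine cells.

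Of the remaining members with the smallest p, Cox7c in rods was at 268 and 293 CPM in the ω-3 mice and at 395, 372 and 405 CPM in the ω-6 mice (log2 fold change 0.55, SE 0.14, edgeR adjusted p = 0.341). The third in rods, mt-Co3, was at 3851 and 4201 CPM against 4375, 6583 and 6039 CPM. In bipolar cells Uqcrq was at 120 and 133 CPM against 205, 186 and 192 CPM, and the pseudogene Atp5l2-ps at 55.2 and 45.2 CPM against 107, 59.4 and 94.4 CPM. In Müller glia Cox7c was at 193 and 205 CPM against 324, 302 and 310 CPM, and Atp5k, subunit e of ATP synthase, at 215 and 139 CPM against 249, 319 and 320 CPM. In each of these cases the ω-6 mice lay above both ω-3 mice, and the edgeR adjusted p was between 0.341 and 0.994.

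By complex, the summed level in ω-6 was 1.21 to 1.32 times that in ω-3 in rods over complexes II to V. Complex II, with nuclear genes only, was at 1.17 to 1.25 times in the other 4 classes. The summed level of the mitochondrial ribosomal RNAs was higher in each ω-6 mouse than in both ω-3 mice in every class, with 3816 and 4548 CPM in ω-3 and 7612 to 12123 CPM in ω-6 in rods. In cones 1 of these 2 genes overlapped between the diets. The dissociation list ran the other way in rods, with 4159 and 4827 CPM in ω-3 and 3252 to 3594 CPM in ω-6, and overlapped in Müller glia. RNAs of rods read in amacrine cells were at 2391 and 2151 CPM in ω-3 and at 984 to 1787 CPM in ω-6, and 12 of 12 had log2 fold changes below 0. The list of nuclear RNAs and RNAs without poly(A) summed in amacrine cells to 3360 and 4010 CPM in ω-3 and to 2545 to 2796 CPM in ω-6. The part of any of these in the member values was not tested.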

How the data were processed

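Retinas were dissociated with papain, single cells were captured with inDrop v3, and UMIs were counted in 11 mice. The authors assigned reads with RapMap in bcbio to transcripts of GRCm38, excluded barcodes with few reads, and deposited whole UMI counts for every gene in every cell, not normalized. The labels name the builds mm10 and GRCm38.p6.

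Cells with more than 300 genes were clustered with Seurat 5.3.0 (2000 variable genes, 75 principal components, resolution 0.2). Clusters were named from marker lists, with thresholds set after the data were seen, and 0.593% (control) to 1.31% (ω-3) of cells stayed unnamed. Scrublet in scanpy 1.11.5 marked 72 cells (0.359%) as doublets, which is too few to count as a working call, so none were removed and the 5% of cells with the highest scores were left out as an alternative. UMIs were summed per mouse and class (at least 10 cells each). The 2 groups compared entered edgeR 4.0.16 in R 4.3.3 (filterByExpr, TMM, quasi-likelihood test, Benjamini-Hochberg adjusted p under 0.05). Background percentages are shares of all tested genes in the main fits, and those of the alternatives are not given. Interactions used the mouse as a block. The sums behind each fit were too shallow for 4 scarce isoforms.

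Members, gene lists and tests were chosen with earlier results of these data known. Values per mouse were given for members of mitochondrial DNA, for the 2 members per complex called in the most classes, for the 3 members with the smallest p per class in ω-6 vs. ω-3, and for isoform families by level. Alternatives were DESeq2 1.42.0, other scalings, no filter, all groups in 1 fit, a replicate block, each mouse left out, other cell filters and class names, and thinned sums. Near-identical copies added to members, and scaling without genes of mitochondrial DNA and their copies, were alternatives chosen after seeing the data. Titles of control and Phase I ROP samples share replicate numbers. Correlations of same-numbered deviations were −0.05 to 0.19, which with so few mice neither establishes nor excludes a pairing. For the diets, the 2 shared numbers gave 0.08 to 0.37, which with 2 pairs does not establish a pairing.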

Additional observations from a re-analysis of the deposited data

Results flagged for a closer look

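For 25 results, the effect of Phase I ROP vs. control differed between rods and another class by the interaction term of edgeR's quasi-likelihood test (adjusted p under 0.05). Values are the effect in rods minus the effect in the other class on the log2 scale, and a positive value is a smaller fall, or a rise, in rods.

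Against bipolar cells, the differences in complex III were 1.17 for Uqcr11, 0.95 for Uqcrb, 1.28 for Uqcrc1, 1.00 for Uqcrh and 1.43 for Uqcrq. In complex IV they were 0.67 for Cox4i1, 0.94 for Cox5a, 0.69 for Cox5b, 1.31 for Cox6c, 0.89 for Cox7a2 and 0.80 for Cox7c. In complex V they were 0.65 for Atp5b, 0.94 for Atp5e, 1.11 for Atp5g3, 0.79 for Atp5h, 0.97 for Atp5j and 0.86 for Atp5j2.

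Against amacrine cells, the differences were 1.30 for Uqcr11, 0.74 for Uqcrb, 1.04 for Uqcrc1, 0.77 for Uqcrh and 1.25 for Uqcrq in complex III. They were 1.12 for Cox6c and 0.68 for Cox7c in complex IV, and 0.91 for Atp5g3 in complex V. All 8 of these members were also called against bipolar cells. Control replicate 2 had the lowest nuclear member sum among control mice in rods, and without it 3 members were called against bipolar cells.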

How the results depend on the processing

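Phase I ROP vs. control. Without the filter on low counts, 8 members were called in rods and 7 in cones. With classes by marker score, 30 were called in rods, and the median log2 fold change was −0.80 in cones and −0.67 in Müller glia. With thinned sums, 15 were called in cones. DESeq2 called 5 in Müller glia. With each mouse left out in turn, counts ran from 42 to 45 in amacrine cells, 40 to 44 in bipolar cells, 6 to 36 in rods, 11 to 27 in cones and 3 to 13 in Müller glia, and medians from −1.19 to −1.09, −1.22 to −1.04, −0.74 to −0.37, −1.02 to −0.69 and −0.63 to −0.52. With the replicate block, the counts in that order were 45, 45, 19, 24 and 19, and the shared numbers are not known to pair the mice.

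ω-6 vs. ω-3. DESeq2 called 7 members in rods and 1 in cones. Without the filter, 6 were called in rods, 4 in amacrine cells, 1 in bipolar cells and 1 in Müller glia. The replicate block gave 1 in cones and 1 in bipolar cells. The median in rods was 0.39 with thinned sums and 0.38 with copies added, and in amacrine cells 0.28 by marker score. With each mouse left out, counts ran from 0 to 5 in rods (5 without ω-6 replicate 1) and 0 to 0 in the others, and medians from 0.28 to 0.34, 0.17 to 0.30, 0.32 to 0.41, 0.26 to 0.32 and 0.08 to 0.27 in the same order of classes.

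Interactions. Against bipolar cells, DESeq2 called 3, median-of-ratios scaling 7 and clusters with leading markers 2, and leaving out a mouse gave 3 to 10. Against amacrine cells, DESeq2 called 4, scaling without genes of mitochondrial DNA 25, no filter 21, that scaling also without their copies 16 and clusters with leading markers 3, and leaving out a mouse gave 3 to 14. Of 96 results for named members, 1803 alternatives gave the same call in 1635, lost it in 118, gained it in 47 and reversed the sign in 3, none of which was called: Sdhc (0.0205) and Cox8a (0.0718) in Müller glia without Phase I ROP replicate 1, and Cox8a in rods without the filter (0.0752). With each mouse left out, Sdhc in Müller glia ran from −0.432 to 0.0205 and Cox8a from −0.214 to 0.0718. The cause was not tested. Depth limits cones most, with 13 to 46 control cells per mouse.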
